A study of Mus musculus with 15 samples.

Results

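The genes described here are 10 markers of preadipocytes and adipose progenitor cells, taken by name, with no threshold on a measured value: Pdgfra, Pdgfrb, Cd34, Ly6a, Dpp4, Pi16, Thy1, Icam1, Zfp423 and Eng. They are 10 of the 46603 genes in the count files, each matched by 1 identifier. The list was chosen with earlier results of these data known. Of the 10, 8 passed the filter on low counts and were tested among 15997 genes, while Dpp4 and Icam1 did not pass. They were measured by RNA-Seq in mouse embryonic fibroblasts (MEFs), cells grown out of whole mouse embryos, in 15 samples of 5 conditions.

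All samples came from wild-type BALB/c MEFs, which the labels assign to embryos of 10.5 days. The paper's introduction describes MEFs in general as cells from older embryos of another strain. MEFD0 was collected at confluency on day 0, before any treatment. The treated cells received IBMX (0.5 mM), insulin (10 µg/mL), dexamethasone (1 µM) and rosiglitazone (10 µM) for 3 days (MEFD3plu), and were then kept in growth medium for 2 further days (MEFD5plu). Untreated cells of the same days were MEFD3min and MEFD5min, and growth medium was DMEM with 10% foetal bovine serum in all conditions. Each condition had 3 samples, numbered 1, 3 and 4. The study's methods speak of independent experiments in general, but the sources do not say whether these RNA samples came from separate embryos or cultures, so the p-values measure the spread between these samples, which may be technical. A MEF culture is a mixture of cell types, and in bulk RNA fewer cells of a type and less RNA per cell cannot be told apart.

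Adipocytes arise from mesenchymal progenitors that carry the platelet-derived growth factor (PDGF) receptors on their surface. In adipose tissue, early interstitial progenitors that express Dpp4 and Pi16 give rise to committed preadipocytes that express Icam1, and the surface proteins Cd34, Ly6a (Sca-1) and Thy1 (CD90) are used to sort such cells. Zfp423 is a zinc finger transcription factor of committed preadipocytes, and Eng (endoglin, CD105) is a co-receptor for ligands of the TGF-β family. As cells fill with lipid, the expression of such progenitor markers is generally known to decline.

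The libraries held between 24030558 and 37281126 counts. The lowest total was that of MEFD5min replicate 3, which also stood apart in its interferon response genes (a summed 565 CPM, counts scaled to a common library size, against 1345 and 1389 in the other MEFD5min samples) and had the lowest Cd34, Ly6a and Pi16 of its group. Values that change without it are given where they occur. The summed level of 10 adipocyte markers lay between 62.2 and 88.4 CPM in the 9 samples without treatment and between 10217 and 13548 CPM in the 6 treated samples. The summed level of 8 fibroblast markers, collagens, vimentin and others, was between 10372 and 35720 CPM in all samples. The highest was that of MEFD3min replicate 3, against 24493 and 26965 CPM in the other MEFD3min samples. This sample also had the highest Pdgfra, Pdgfrb and Eng of its group. The chi-square per degree of freedom between its counts and those of replicates 4 and 1 was 126 and 51.4. No other pair of samples within a condition exceeded 33.0.

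The upstream sequences of 5 of the genes are shown because their genes cover the range of behaviour described below. Pdgfra and Eng were expressed in all conditions and lower in treated cells on day 3. Zfp423 was higher in treated cells, and Dpp4 and Icam1 had almost no counts. Each is the 250 bases before a RefSeq gene start (GRCm38.p6), written 5′ to 3′ on the gene's strand. Capitals mark matches, on either strand, to 12 searched motifs. For Zfp423, with 2 starts, the first is shown.
Pdgfra, chr5:75152001-75152250, plus strand: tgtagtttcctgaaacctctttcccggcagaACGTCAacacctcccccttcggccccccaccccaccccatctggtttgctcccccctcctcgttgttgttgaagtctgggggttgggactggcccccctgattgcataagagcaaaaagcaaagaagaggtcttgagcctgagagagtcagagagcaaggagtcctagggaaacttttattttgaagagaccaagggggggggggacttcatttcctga
Eng, chr2:32646345-32646594, plus strand: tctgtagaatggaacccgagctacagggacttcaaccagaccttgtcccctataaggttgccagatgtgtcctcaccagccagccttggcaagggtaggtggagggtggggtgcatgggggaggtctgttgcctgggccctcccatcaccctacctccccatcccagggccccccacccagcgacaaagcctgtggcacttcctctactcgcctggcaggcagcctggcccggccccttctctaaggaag
Zfp423, chr8:87959596-87959845, minus strand: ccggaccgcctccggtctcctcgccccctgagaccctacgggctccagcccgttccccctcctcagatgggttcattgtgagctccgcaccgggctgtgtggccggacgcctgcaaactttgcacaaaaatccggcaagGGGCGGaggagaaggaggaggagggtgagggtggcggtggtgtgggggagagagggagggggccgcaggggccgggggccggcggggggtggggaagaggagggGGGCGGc
Dpp4, chr2:62412232-62412481, minus strand: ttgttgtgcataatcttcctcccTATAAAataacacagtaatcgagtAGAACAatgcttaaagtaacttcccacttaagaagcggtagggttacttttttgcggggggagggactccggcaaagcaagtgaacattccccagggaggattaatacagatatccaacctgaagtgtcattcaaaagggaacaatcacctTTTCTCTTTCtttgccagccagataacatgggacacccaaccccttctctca
Icam1, chr9:21015690-21015939, plus strand: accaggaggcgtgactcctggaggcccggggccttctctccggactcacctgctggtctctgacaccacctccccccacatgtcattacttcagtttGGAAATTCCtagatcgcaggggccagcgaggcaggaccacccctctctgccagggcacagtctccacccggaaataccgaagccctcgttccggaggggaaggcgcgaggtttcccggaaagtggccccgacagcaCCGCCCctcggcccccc

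The motifs searched were the cAMP response element (TGACGTCA) and its core (TGACGT), the full glucocorticoid response element and its core (TGTTCT), the PPAR and RXR direct repeat, the C/EBP palindrome (TTGCGCAA), the interferon-stimulated response element, the NF-κB site in a long form and in a short form (GGAAATTCC), the GC box (GGGCGG), the TATA box (TATAAA) and the NF-Y box (CCAAT). Both cores lie within their full elements, so these matches overlap. The short NF-κB form was added to the search after the Icam1 sequence had been read. RefSeq entries were found for 7 of the 10 genes, with none for Pdgfrb, Ly6a and Thy1.

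The Pdgfra window held TGACGT at 219 to 214 bases before the start, a motif present in 6.47% of the 32851 promoters of this length. The Zfp423 window held 2 GC boxes, which 32.7% of promoters have, together with 18 CpG dinucleotides and a GC content of 71.6% against a median of 52.4% over all promoters. The Icam1 window was also GC-rich (65.2%, with 15 CpG dinucleotides), and held a GC box and GGAAATTCC (0.286% of promoters). The Dpp4 window was the poorest of the 5 in GC (43.6%) and held TATAAA at 227 to 222 bases, TGTTCT and an interferon-stimulated response element, which occur in 12.4%, 16.1% and 2.98% of promoters. None of the 12 motifs was in the Eng window. These matches describe the letters of the windows and not sites in use.

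On day 3, the progenitor markers were mostly lower in treated than in untreated cells, and by day 5 this was no longer so. All 8 tested markers passed the test on day 3, of which 6 were lower in MEFD3plu (Pdgfra, Cd34, Ly6a, Pi16, Thy1 and Eng) and 2 were higher (Pdgfrb and Zfp423). Of all genes tested, 56.1% passed in this comparison, 28% in each direction. On day 5, 4 of the 8 passed (Pdgfra, Ly6a, Pi16 and Zfp423), all higher in MEFD5plu, against 50.5% of all genes (26.3% higher and 24.2% lower). The median log2 fold change of the 8 was -1.56 on day 3 and 0.30 on day 5, where the medians over all genes were -0.00057 and 0.01. The share of markers passing on day 5 was thus close to that of all genes. The markers were chosen with earlier results of these data known, and Zfp423 passed the filter on low counts only through MEFD3plu. Their counts beside the shares of all genes are therefore a description and not a test. Adjusted p-values here come from the quasi-likelihood test of edgeR, corrected by Benjamini and Hochberg's method over all 15997 genes, and 0.05 was the threshold.

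The treatment effect itself differed between the days for 7 of the 8 markers, where 48.5% of all genes passed this test (22.6% higher and 25.8% lower). It was lower on day 3 than on day 5 for 6 of them and higher for Zfp423. The samples of the treated and untreated cells did not overlap for 7 markers on day 3 (56.8% of all genes) and for 5 on day 5 (62.1% of all genes).

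**Figure D1:**
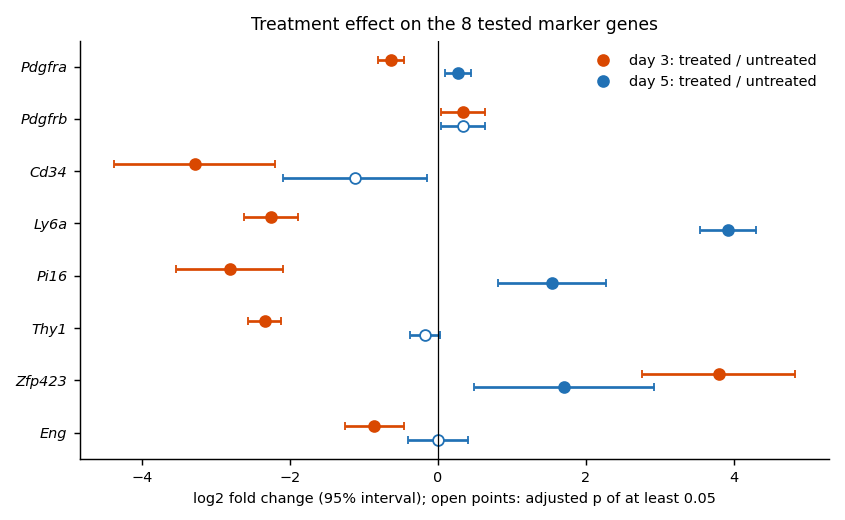
Log2 fold change of treated over untreated cells on day 3 (orange) and day 5 (blue) for the 8 tested markers, with 95% intervals from the fit, filled where the adjusted p was under 0.05. Ly6a, Pi16 and Pdgfra lie on opposite sides of 0 on the 2 days with both values filled, Pdgfra with smaller values (-0.63 and 0.27). Pdgfrb has nearly the same value on both.

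Pdgfra (chr5:75152292-75198215, plus strand, GRCm38), the receptor for PDGF-A and PDGF-C that marks most mesenchymal progenitors, was expressed in all conditions. In the order of replicates 1, 3 and 4, its level was 124, 133 and 116 CPM in MEFD0, 380, 423 and 376 CPM in MEFD3min, 265, 252 and 246 CPM in MEFD3plu, 297, 265 and 284 CPM in MEFD5min and 358, 313 and 350 CPM in MEFD5plu. The MEFD0 samples were the lowest and the MEFD3min samples the highest, and treated samples were apart from untreated samples on both days. Untreated cells rose 3.17-fold from day 0 to day 3 (log2 fold change 1.66, SE 0.085, adjusted p = 3.26e-11) and then fell by 0.48 on the log2 scale to day 5 (adjusted p = 0.000176). Treated cells were 1.55-fold lower than untreated cells on day 3 (log2 fold change -0.63, SE 0.083, adjusted p = 5.61e-06).

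From day 3 to day 5 treated cells gained Pdgfra (log2 fold change 0.42, adjusted p = 0.000319) and were 1.21-fold above untreated cells on day 5 (log2 fold change 0.27, adjusted p = 0.0122). The day 5 difference was small and lost its call without MEFD5min replicate 3 (0.23, adjusted p = 0.0580), without MEFD5min replicate 4 (0.23, adjusted p = 0.0676) and without MEFD5plu replicate 1 (0.23, adjusted p = 0.0537). Scaling by total counts gave 0.11 (adjusted p = 0.323), and moved the median of all genes by -0.16 in this comparison. The difference between the effects of the 2 days was -0.90 (SE 0.12, adjusted p = 9.33e-06). Both treated conditions stayed above MEFD0, 2.05-fold on day 3 and 2.74-fold on day 5 (adjusted p = 8.66e-09 and 1.65e-10).

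Pdgfrb (chr18:61045150-61085061, plus strand), the receptor for PDGF-B and PDGF-D and a marker of perivascular progenitors, followed the day more than the treatment. Its level was 84.4, 94.1 and 76.7 CPM in MEFD0, 80.3, 120 and 79.7 CPM in MEFD3min, 119, 124 and 111 CPM in MEFD3plu, 51.3, 48.4 and 40.4 CPM in MEFD5min and 66.8, 53.0 and 57.3 CPM in MEFD5plu. MEFD3min replicate 3 lay within the treated range, and all day 5 samples lay below all day 0 and day 3 samples. From day 3 to day 5 Pdgfrb fell by 1.00 on the log2 scale in untreated cells (SE 0.14, adjusted p = 2.62e-05) and by 1.00 in treated cells (SE 0.14, adjusted p = 1.25e-05).

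The treatment effect on Pdgfrb was 0.34 on the log2 scale on both days, with adjusted p = 0.0498 on day 3 and 0.0584 on day 5. The 95% intervals were 0.042 to 0.64 on day 3 and 0.036 to 0.64 on day 5. The difference between the days was 0.00078 (95% interval -0.43 to 0.43, adjusted p = 1.00). The day 3 call was lost on leaving out any 1 of the 6 samples except MEFD3min replicate 3, with values of 0.24 without MEFD3min replicate 1 or 4, 0.34 without MEFD3plu replicate 1, 0.31 without MEFD3plu replicate 3 and 0.38 without MEFD3plu replicate 4. Without MEFD3min replicate 3 it was 0.56 (adjusted p = 0.00042). A fit that also held the replicate number gave 0.35 on day 3 (adjusted p = 0.0147) and 0.35 on day 5 (adjusted p = 0.0195). The day 5 difference passed the test without MEFD5plu replicate 3 (0.41, adjusted p = 0.0473).

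The 4 PDGF genes, which encode the ligands of these receptors, were all tested. On day 3, 3 of them were lower in treated cells and none was higher, and the same count was found on day 5. Of all genes, 28% were lower on day 3 and 24.2% on day 5. Pdgfa fell 2.30-fold on day 3 (20.2 ± 1.5 CPM in MEFD3min and 8.77 ± 0.60 CPM in MEFD3plu, SD, n = 3, adjusted p = 9.13e-08 by edgeR) and was 1.70-fold lower on day 5 (adjusted p = 1.71e-05). Pdgfd was 6.39-fold lower on day 3 (adjusted p = 2.55e-06) and 1.64-fold lower on day 5 (adjusted p = 0.0377). Pdgfc was 1.61-fold and 1.29-fold lower (adjusted p = 7.84e-06 and 0.00367). For Pdgfb the day 3 value was 0.12 (adjusted p = 0.858). On day 5 Pdgfra and its ligand genes Pdgfa and Pdgfc thus differed from untreated cells in opposite directions.

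**Figure D2:**
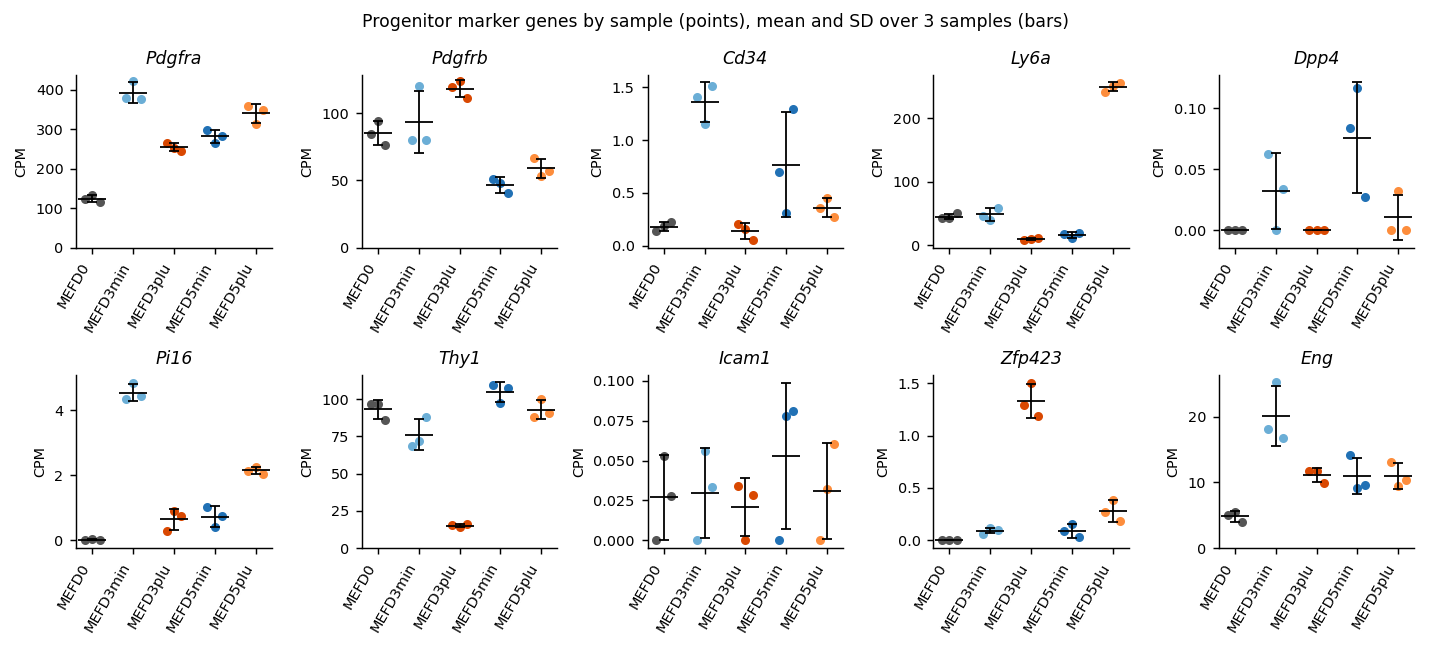
CPM of each of the 10 markers (1 panel per gene, each with its own linear axis) in the 5 conditions, with points for the 3 samples and bars for the mean and SD. Thy1 and Ly6a are low in MEFD3plu, Ly6a is high in MEFD5plu, Zfp423 is high in MEFD3plu, and the Dpp4 and Icam1 axes end near 0.1 CPM.

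Thy1 (CD90; chr9:44043384-44048579, plus strand), a glycoprotein anchored in the membrane of fibroblasts and mesenchymal stem cells, was low only in the treated cells of day 3. Its level was 96.8, 96.6 and 86.0 CPM in MEFD0, 68.6, 71.9 and 88.1 CPM in MEFD3min, 15.3, 13.9 and 15.96 CPM in MEFD3plu, 110, 97.4 and 108 CPM in MEFD5min and 88.1, 100 and 90.9 CPM in MEFD5plu. All MEFD3plu samples lay below every sample of the 4 other conditions, which were within 68.6 to 110 CPM. Treated cells were 5.06-fold lower than untreated cells on day 3 (log2 fold change -2.34, SE 0.10, adjusted p = 5.93e-12).

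Thy1 then rose 6.18-fold in treated cells from day 3 to day 5 (log2 fold change 2.63, SE 0.10, adjusted p = 4.86e-12). On day 5 the treated value was -0.17 against untreated cells (95% interval -0.38 to 0.030, adjusted p = 0.146), and against MEFD0 it was -0.0012 (95% interval -0.20 to 0.20, adjusted p = 0.992). Scaling by total counts gave a day 5 difference of -0.34 (adjusted p = 0.00308). The effects of the 2 days differed by -2.17 (SE 0.14, adjusted p = 2.60e-09).

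Ly6a (Sca-1; chr15:74994877-74998031, minus strand), a small membrane-anchored protein used to sort adipose progenitors and known to respond to interferon, showed the widest range of the well expressed markers. Its level was 43.6, 43.0 and 50.4 CPM in MEFD0, 46.8, 39.9 and 59.8 CPM in MEFD3min, 8.80, 10.1 and 11.7 CPM in MEFD3plu, 18.5, 11.6 and 19.1 CPM in MEFD5min and 242, 251 and 256 CPM in MEFD5plu. The treated samples lay below all untreated samples on day 3 and above all others on day 5. Treated cells were 4.78-fold lower on day 3 (log2 fold change -2.26, SE 0.17, adjusted p = 6.09e-09) and 15.1-fold higher on day 5 (3.92, SE 0.18, adjusted p = 1.61e-11).

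Within treated cells Ly6a rose 24.4-fold from day 3 to day 5 (log2 fold change 4.61, SE 0.19, adjusted p = 4.87e-12), while in untreated cells it fell by 1.56 (adjusted p = 9.13e-07). From day 0 to day 3 untreated cells gave 0.10 (95% interval -0.24 to 0.43, adjusted p = 0.619). The difference between the treatment effects was -6.17 (SE 0.25, adjusted p = 1.72e-11). Of the 50-base stretches of Ly6a's exons, 19.0% also occur in other genes, among them Ly6c1 and Ly6i, so part of its counts could depend on how shared reads were handled.

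Of 6 other Ly6 genes listed, 2 were tested, and both were lower in treated cells on day 3 and higher on day 5. The shares of all genes were 28% lower on day 3 and 26.3% higher on day 5. Ly6e had means of 507 ± 34 and 123 ± 3.5 CPM (SD, n = 3) in untreated and treated cells on day 3, and 279 ± 49 and 633 ± 59 CPM on day 5, with log2 fold changes of -2.05 and 1.18 (adjusted p = 2.01e-10 and 3.56e-07 by edgeR). Ly6c1, which shares sequence with Ly6a, had -1.77 on day 3 and 3.18 on day 5 (adjusted p = 2.51e-09 and 2.57e-12).

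The 10 interferon response genes, listed because Ly6a is a known interferon target, were all lower in treated cells on day 3 (median log2 fold change -6.94) and all higher on day 5 (median 1.95). Of all genes, 28% were lower on day 3 and 26.3% higher on day 5. Bst2, which tethers budding virus particles, had a log2 fold change of -7.15 on day 3 (adjusted p = 7.83e-13), and Irf7 and Usp18 had -6.73 and -8.21. On day 5 Irf1, a transcription factor induced by interferon, was 2.16-fold higher (adjusted p = 1.15e-07). Their summed level was 39.4 to 44.5 CPM in MEFD0, 2349 to 3282 CPM in MEFD3min, 52.3 to 53.6 CPM in MEFD3plu, 565 to 1389 CPM in MEFD5min and 5075 to 5267 CPM in MEFD5plu. The sum was therefore lowest in MEFD0, slightly above that in MEFD3plu, and highest in MEFD5plu, whereas Ly6a in MEFD0 was close to its level in MEFD3min. Single genes of the list did not all follow the sum, since in MEFD3plu against MEFD0 3 of the 10 were higher and 2 lower. Their part in the Ly6a values was not tested. Without MEFD5min replicate 3 and without each other day 5 sample, the Ly6a difference on day 5 was between 3.73 and 4.01.

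**Figure D3:**
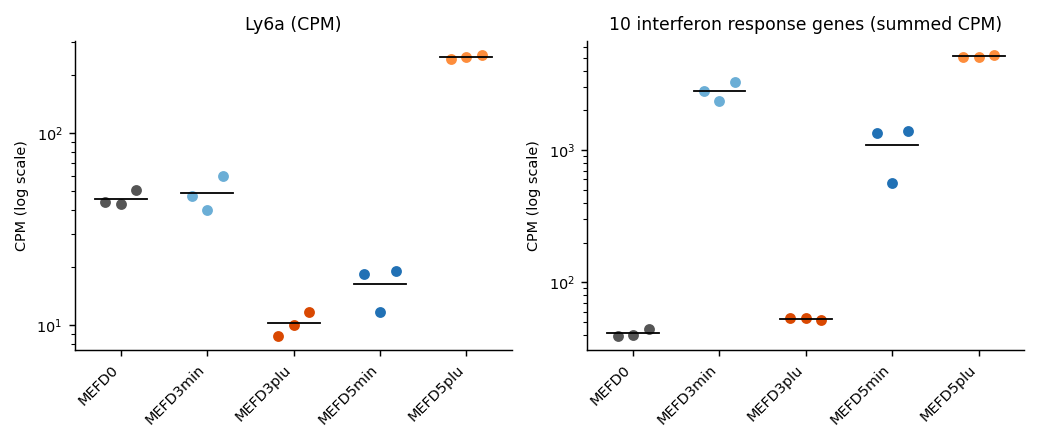
Ly6a (left) and the summed level of 10 interferon response genes (right) in each of the 15 samples, in CPM on log axes, with a line at the mean of each condition. Both are highest in MEFD5plu (242 to 256 and 5075 to 5267 CPM) and low in MEFD3plu, and in MEFD0 Ly6a is at 43.0 to 50.4 CPM while the interferon genes are at 39.4 to 44.5 CPM in sum.

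Cd34 (chr1:194938819-194961279, plus strand), a sialomucin of progenitor and endothelial cells, had few counts. There were 4, 7 and 8 counts in MEFD0, 45, 41 and 45 in MEFD3min, 6, 5 and 2 in MEFD3plu, 25, 8 and 48 in MEFD5min and 12, 14 and 9 in MEFD5plu. MEFD3min samples were at 1.15 to 1.51 CPM and MEFD3plu samples at 0.06 to 0.20 CPM, and the 2 conditions did not overlap. Cd34 rose 7.24-fold in untreated cells from day 0 to day 3 (log2 fold change 2.86, SE 0.49, adjusted p = 7.47e-05) and was 9.74-fold lower in treated cells on day 3 (-3.28, SE 0.52, adjusted p = 3.57e-05). MEFD3plu did not differ detectably from MEFD0 at this depth (-0.43, 95% interval -1.74 to 0.89, adjusted p = 0.568).

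The untreated samples of day 5 were spread from 0.31 to 1.30 CPM for Cd34, with the lowest in replicate 3. The day 5 difference was -1.12 (SE 0.46, adjusted p = 0.0513), and it passed the test without MEFD5min replicate 3 (-1.47, adjusted p = 0.00986). Without MEFD5min replicate 4 it was -0.57 (adjusted p = 0.355). The rise in treated cells from day 3 to day 5 (1.38, adjusted p = 0.0453) was lost without MEFD3plu replicate 3 (1.49, adjusted p = 0.0749) or 4 (0.98, adjusted p = 0.173) and without MEFD5plu replicate 1 (1.38, adjusted p = 0.0783) or 3 (1.19, adjusted p = 0.130). The difference between the day 3 and day 5 effects was -2.16 (SE 0.71, adjusted p = 0.0180), and -1.76 (adjusted p = 0.0551) without MEFD3plu replicate 4.

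Since Cd34 is also an endothelial and haematopoietic gene, 8 markers of each of those cell types were examined. Their summed levels were 1.20 to 18.8 CPM for the endothelial and 2.07 to 6.97 CPM for the haematopoietic markers, and only 3 of 8 in each list passed the filter. The endothelial sum lay within 6.36 to 7.53 CPM in MEFD3min and 5.39 to 7.10 CPM in MEFD3plu, and these ranges overlap. The haematopoietic sum was 5.67 to 6.22 CPM in MEFD3min and 4.09 to 4.37 CPM in MEFD3plu, which do not overlap and lie in the direction of Cd34. In MEFD0 the endothelial sum was 1.20 to 1.75 CPM and the haematopoietic sum 2.07 to 2.74 CPM. Both sums were thus lower in MEFD0 than in MEFD3min, as was Cd34. The part of these cell types in the Cd34 values was not tested.

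Pi16 (peptidase inhibitor 16; chr17:29317680-29330593, plus strand) marks the interstitial progenitors that lie upstream of preadipocytes. It had 0, 1 and 0 counts in MEFD0, 139, 173 and 132 in MEFD3min, 8, 29 and 26 in MEFD3plu, 37, 10 and 27 in MEFD5min and 72, 70 and 68 in MEFD5plu. In CPM, MEFD3min samples were at 4.36 to 4.86, MEFD3plu at 0.27 to 0.91, MEFD5min at 0.39 to 1.03 and MEFD5plu at 2.05 to 2.26. Pi16 was thus almost undetected before the time course, and treated and untreated samples were apart on both days in opposite directions.

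Against the single count of MEFD0, the ratio of Pi16 levels was 469 in MEFD3min (95% exact interval 83.7 to 18557, covering counting error only), 66.9 in MEFD3plu (11.6 to 2684) and 221 in MEFD5plu (39.2 to 8754). Treated cells were 7.02-fold lower than untreated cells on day 3 (log2 fold change -2.81, SE 0.34, adjusted p = 2.05e-06) and 2.91-fold higher on day 5 (1.54, SE 0.34, adjusted p = 0.00126). Untreated cells lost 2.62 on the log2 scale from day 3 to day 5 (log2 fold change -2.62, adjusted p = 7.71e-06), and treated cells gained 1.73 (adjusted p = 0.000376). The effects of the 2 days differed by -4.35 (SE 0.48, adjusted p = 1.56e-06).

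Dpp4 (dipeptidyl peptidase 4, CD26; chr2:62330073-62412231, minus strand), which marks the same early progenitors as Pi16 in adipose tissue, had 0 counts in all 3 MEFD0 and all 3 MEFD3plu samples, 2, 0 and 1 in MEFD3min, 3, 3 and 1 in MEFD5min and 0, 1 and 0 in MEFD5plu. Icam1 (chr9:21015985-21028817, plus strand), the adhesion molecule of committed preadipocytes, had 0, 2 and 1 counts in MEFD0, 0, 2 and 1 in MEFD3min, 1, 0 and 1 in MEFD3plu, 0, 2 and 3 in MEFD5min and 0, 1 and 2 in MEFD5plu. No sample had more than 3 counts of either gene, and each gene stayed below the filter. The 3 MEFD5min samples, with 1 to 3 counts of Dpp4, lay above the MEFD0 and MEFD3plu samples, which had none. In a condition without a count, 3 counts over its samples would correspond to 0.0292 CPM for Dpp4 in MEFD0 and 0.0310 CPM in MEFD3plu, which covers counting error only.

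When all genes with a count were tested without a filter, neither gene passed in the day 3 comparison (Dpp4 adjusted p = 0.234 and Icam1 0.904) or the day 5 comparison (0.263 and 0.825). For Dpp4 in MEFD5min the adjusted p was 0.0624 against MEFD0 and 0.0523 against MEFD3plu. The low Icam1 values stood beside 8 NF-κB response genes, a pathway that can induce Icam1, of which all 8 were tested. On day 3, 3 were higher and 2 lower in treated cells, and on day 5, 3 were higher and 1 lower. The shares of all genes were 28% in each direction on day 3, and 26.3% higher and 24.2% lower on day 5. Nfkbia, the inhibitor of NF-κB, was 2.52-fold and 1.67-fold higher (adjusted p = 1.99e-07 and 0.000211). Ccl2, a chemokine that attracts monocytes, fell by 1.90 on the log2 scale on day 3 and was 2.44-fold higher on day 5 (adjusted p = 7.84e-07 and 7.49e-05). Birc3, an inhibitor of apoptosis, had -0.85 and 0.82 (adjusted p = 2.96e-06 and 6.82e-06).

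**Figure D4:**
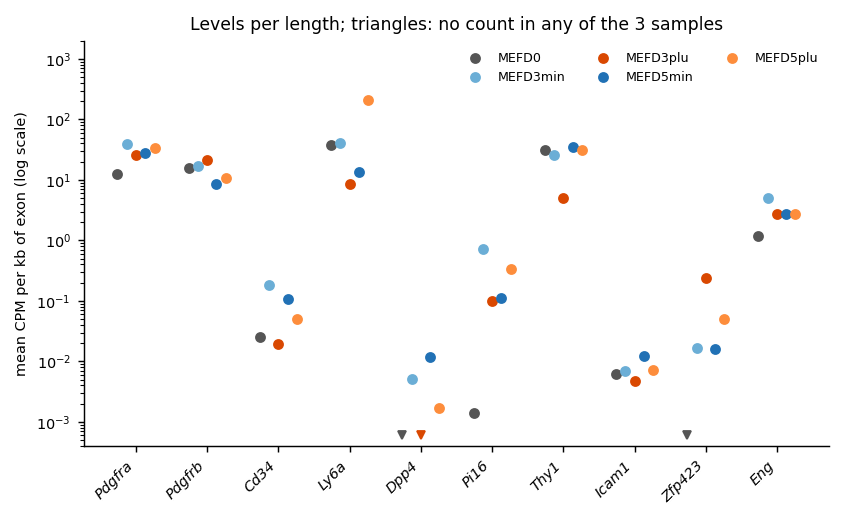
Mean CPM per kilobase of merged exon for the 10 markers in the 5 conditions, on a log axis, with triangles where no sample of the condition had a count. Pdgfra, Pdgfrb, Ly6a and Thy1 lie at 5.02 to 207 CPM per kilobase, Eng at 1.19 to 4.96, and Cd34, Pi16, Zfp423, Dpp4 and Icam1 below 1 in every condition.

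Zfp423 (chr8:87661810-87959595, minus strand), whose GC-rich upstream sequence is printed above, was the only tested marker that was highest in MEFD3plu by a margin of more than 2-fold over every other condition. It had no count in MEFD0, 2, 4 and 3 in MEFD3min, 38, 48 and 42 in MEFD3plu, 3, 4 and 1 in MEFD5min and 9, 12 and 6 in MEFD5plu. MEFD3plu, where it was highest, was the only condition whose counts took it past the filter on low counts. All treated samples lay above all untreated samples on both days. Treated cells were 13.8-fold higher on day 3 (log2 fold change 3.79, SE 0.49, adjusted p = 7.94e-06), and fell by 2.24 on the log2 scale to day 5 (SE 0.41, adjusted p = 0.000245). Against the 3 MEFD0 libraries, taken at a floor of 3 counts over the group, Zfp423 was at least 45.3-fold higher in MEFD3plu and at least 9.45-fold higher in MEFD5plu.

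The day 5 difference of Zfp423 was 1.70 (SE 0.57, adjusted p = 0.0214). It lost its call without MEFD5min replicate 1 (1.71, adjusted p = 0.0612), MEFD5min replicate 4 (1.19, adjusted p = 0.115) or MEFD5plu replicate 3 (1.40, adjusted p = 0.0964). The difference between the effects of the 2 days was 2.09 (SE 0.83, adjusted p = 0.0489), and was not called on leaving out any 1 of 10 of the 12 samples, with values between 1.54 and 2.27.

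Of 8 partners and relatives of Zfp423, 1 was higher and 3 were lower in treated cells on day 3, and 3 were higher and 2 lower on day 5. The shares of all genes were 28% in each direction on day 3, and 26.3% higher and 24.2% lower on day 5. Ebf2, a factor of preadipocyte commitment, was 1.61-fold lower on day 3 (87.4 ± 4.0 and 54.4 ± 1.9 CPM, SD, n = 3, adjusted p = 7.58e-05 by edgeR) and 1.93-fold higher on day 5 (adjusted p = 4.41e-06). Ebf1 was 2.26-fold higher on day 5 (adjusted p = 4.18e-07). Smad1, a signal carrier of BMP receptors, fell by 0.78 and by 1.09 on the log2 scale (adjusted p = 1.21e-05 and 5.18e-07), and Smad5 by 0.52 on day 3 (adjusted p = 5.43e-05).

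Eng (chr2:32646595-32682669, plus strand) had 5.04, 5.54 and 3.91 CPM in MEFD0, 18.1, 25.3 and 16.8 CPM in MEFD3min, 11.7, 11.8 and 9.84 CPM in MEFD3plu, 14.1, 9.11 and 9.68 CPM in MEFD5min and 13.1, 9.38 and 10.4 CPM in MEFD5plu. MEFD0 was the lowest and MEFD3min the highest condition, and the other 3 conditions overlapped. Untreated cells rose 4.16-fold from day 0 to day 3 (log2 fold change 2.06, SE 0.20, adjusted p = 1.18e-07). Treated cells were 1.81-fold lower than untreated cells on day 3 (-0.86, SE 0.19, adjusted p = 0.000925). Leaving out each sample gave day 3 values between -0.97 and -0.65 (highest adjusted p = 0.00617). On day 5 the difference was -0.0039 (95% interval -0.41 to 0.40, adjusted p = 0.991). The effects of the days differed by -0.85 (SE 0.27, adjusted p = 0.0147), and by -0.67 (adjusted p = 0.0581) when total counts set the scale. Eng is also expressed by endothelial cells, whose marker sum was 1.20 to 1.75 CPM in MEFD0 and 6.36 to 7.53 CPM in MEFD3min. Of the 3 endothelial genes tested, 1 was higher and 1 lower from day 0 to day 3. The part of endothelial cells in the Eng values was not tested.

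Of the receptors and ligands that act with endoglin, 7 of 8 were tested. On day 3, 3 were higher and 2 lower in treated cells, and on day 5, 2 were higher and 3 lower. The shares of all genes were 28% in each direction on day 3, and 26.3% higher and 24.2% lower on day 5. Tgfb3 and Tgfb2 fell by 1.89 and by 2.12 on the log2 scale on day 3 (adjusted p = 2.33e-11 and 4.54e-11), while the type I receptor gene Tgfbr1 was 2.29-fold higher (77.5 ± 4.1 and 177 ± 7.4 CPM, SD, n = 3, adjusted p = 3.50e-10 by edgeR). On day 5 Tgfbr1 was 1.62-fold higher, Tgfb3 1.84-fold lower and Tgfb1 1.84-fold lower (adjusted p = 7.24e-07, 6.43e-07 and 0.000533).

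Other markers of adipose progenitors and of mesenchymal stem cells were counted beside the 10 genes. Of 15 further adipose progenitor markers, 12 were tested. On day 3 all 12 passed, with 3 higher and 9 lower in treated cells, against 56.1% of all genes passing. On day 5, 4 were higher and 5 lower, against 50.5% of all genes passing. Anxa3, an annexin, was 6.42-fold lower on day 3 and 1.73-fold lower on day 5 (adjusted p = 1.24e-12 and 3.63e-06), and Dlk1 (Pref-1), an inhibitor of adipogenesis, was 3.20-fold lower on day 3 (49.0 ± 11 and 15.3 ± 2.0 CPM, SD, n = 3, adjusted p = 1.34e-07 by edgeR). Cd55, a complement regulator found on early progenitors, was 2.60-fold and 2.95-fold higher (adjusted p = 1.58e-06 and 1.88e-06). Abcg1, a cholesterol transporter, was at 0.028 ± 0.028 CPM in MEFD5min and 1.57 ± 0.47 CPM in MEFD5plu (adjusted p = 4.22e-06).

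Of 8 surface antigens of mesenchymal stem cells, 2 were higher and 4 lower on day 3, and 3 were higher and 3 lower on day 5. Nt5e (CD73) and Mcam (CD146) were 8.01-fold and 5.37-fold higher in treated cells on day 3 (adjusted p = 9.04e-11 and 4.18e-10), and Cd9 was 3.45-fold lower (adjusted p = 2.37e-10). On day 5 Cd44 and Alcam were 1.89-fold and 1.53-fold lower (adjusted p = 2.27e-07 and 1.02e-05), and Ngfr was 10.7-fold higher (adjusted p = 0.000146). CD73 (Nt5e), CD90 (Thy1) and CD105 (Eng), the classical surface triad of mesenchymal stem cells, thus did not share a direction on day 3. Over the 8 companion lists, 47 of 59 tested genes passed on day 3 (12 higher and 35 lower in treated cells). On day 5, 44 passed (27 higher and 17 lower). Of all genes, 56.1% passed on day 3 (28% in each direction) and 50.5% on day 5 (26.3% higher and 24.2% lower). All 10 interferon response genes are among those lower on day 3 and among those higher on day 5. The lists were chosen with earlier results of these data known.

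**Figure D5:**
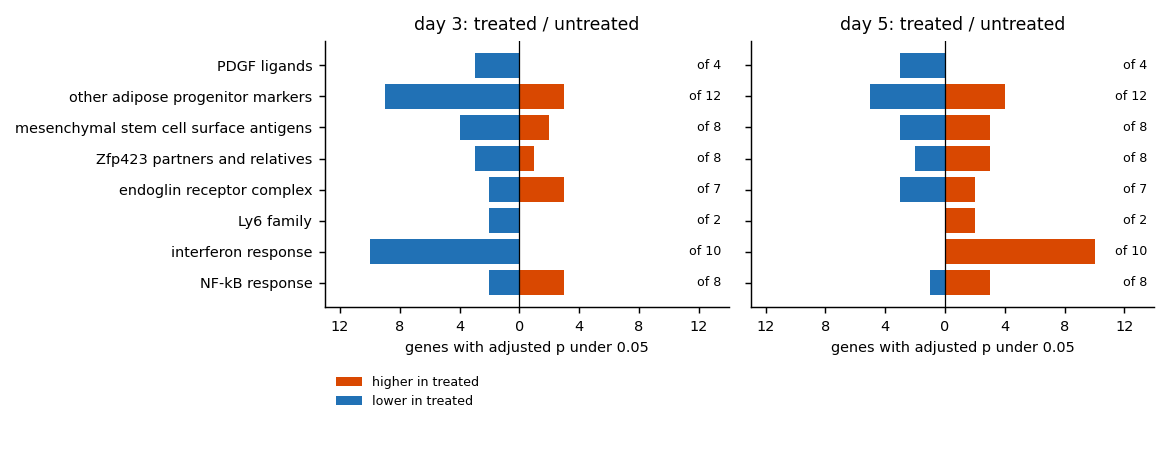
Numbers of genes in 8 companion lists with an adjusted p under 0.05 on day 3 (left) and day 5 (right), to the right of 0 where higher and to the left where lower in treated cells, with the number tested at the margin. The 10 interferon response genes are all lower on day 3 and all higher on day 5. Of all genes tested, 56.1% passed on day 3 and 50.5% on day 5.

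The markers also moved between days without treatment. From day 0 to day 3, 6 of 8 passed in untreated cells (5 higher and 1, Thy1, lower), where 60% of all genes passed (31.4% higher and 28.6% lower). The fall of Thy1 was small (-0.29, adjusted p = 0.0158) and lost its call without MEFD0 replicate 1 (-0.26, adjusted p = 0.0554) or 3 (-0.26, adjusted p = 0.0548) and without MEFD3min replicate 1 (-0.22, adjusted p = 0.0910). From day 3 to day 5 of untreated cells, 6 passed (1 higher and 5 lower), against 42.8% of all genes (21.3% higher and 21.5% lower). In treated cells over the same days 7 passed, 5 higher and 2, Pdgfrb and Zfp423, lower, against 63% of all genes (33.8% higher and 29.2% lower). Against MEFD0, 7 markers passed in MEFD3plu (5 higher and 2 lower), where 63.5% of all genes passed (33.9% higher and 29.7% lower). In MEFD5plu 6 passed (5 higher and 1 lower), where 65% of all genes passed (35.2% higher and 29.8% lower). These comparisons share samples, so their counts are not independent.

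Treated cells on day 5 therefore held more Pdgfra, Ly6a, Pi16, Zfp423 and Eng than cells before treatment and less Pdgfrb. Their adipocyte marker sum was 11534 to 13548 CPM. Untreated cells of day 5 also held more Pdgfra, Pi16, Zfp423 and Eng than MEFD0 (log2 fold changes 1.18, 5.77, 4.51 and 1.19). They also held less Pdgfrb (-0.87), each with an adjusted p under 0.05. Ly6a fell in untreated cells over these days (-1.47) and rose in treated cells (2.45). The mural marker sum, of pericyte and smooth muscle genes, was 299 to 339 CPM in MEFD0, 88.3 to 111 CPM in MEFD3min, 18.2 to 21.7 CPM in MEFD3plu, 451 to 493 CPM in MEFD5min and 122 to 130 CPM in MEFD5plu. Like Thy1 it was lowest in MEFD3plu, but most of the sum was Acta2, a smooth muscle actin that fibroblasts also express (88.4 ± 15 CPM in MEFD3min and 14.5 ± 2.3 CPM in MEFD3plu, SD, n = 3). Of the 5 mural genes tested, 2 were higher and 1, Acta2, was lower in treated cells on day 3, and in MEFD3plu against MEFD0 3 were higher and 1 lower. The shares of all genes were 28% in each direction on day 3, and 33.9% higher and 29.7% lower in MEFD3plu against MEFD0. These are few mural genes. Their part in the Thy1 and Pdgfrb values was not tested. The fibroblast marker sum was 24493 to 35720 CPM in MEFD3min and 11789 to 13123 CPM in MEFD3plu. Of its 8 genes, all tested, 7 were lower and 0 higher in treated cells on day 3 (median log2 fold change -1.94), against 28% of all genes in each direction. On day 5, 2 were higher and 3 lower (median -0.19), against 26.3% and 24.2% of all genes. The part of the fibroblast genes in the marker differences was likewise not tested. The neuronal marker sum was 39.8 to 42.8 CPM in MEFD0 and 8.51 to 21.8 CPM in the other conditions.

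Per kilobase of exon, the levels ranked the markers in a way that shifted with the condition. In MEFD0 the highest was Ly6a (37.9 CPM per kilobase, above 92.4% of tested genes), followed by Thy1 (31.1), Pdgfrb (15.5), Pdgfra (12.4) and Eng (1.19). In MEFD3plu Pdgfra (25.4) and Pdgfrb (21.6) were above Ly6a (8.46) and Thy1 (5.02). In MEFD5plu Ly6a reached 207 CPM per kilobase, above 98.6% of tested genes, and Pdgfra was at 33.9. Cd34, Pi16 and Zfp423 stayed at or under 0.72 CPM per kilobase in all conditions.

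Ordered by their means, the 5 conditions gave 32 neighbouring pairs over the 8 tested markers, of which 18 differed at an adjusted p under 0.05 and 14 did not. In the comparisons of 2 conditions given above, 42.8% (untreated cells, day 3 to day 5) to 65% (MEFD5plu against MEFD0) of all genes passed. The count of 18 is therefore not read as a trait of the markers. For Pdgfra the order was MEFD3min, MEFD5plu, MEFD5min, MEFD3plu and MEFD0, with only MEFD5min and MEFD3plu not told apart. For Ly6a it was MEFD5plu, MEFD3min, MEFD0, MEFD5min and MEFD3plu, with MEFD3min and MEFD0 not told apart. For Pi16 the order was MEFD3min, MEFD5plu, MEFD5min, MEFD3plu and MEFD0, with MEFD5min and MEFD3plu not told apart. For Thy1 it was MEFD5min, MEFD0, MEFD5plu, MEFD3min and MEFD3plu, with MEFD5min and MEFD0, and MEFD0 and MEFD5plu, not told apart. For Zfp423 it was MEFD3plu, MEFD5plu, MEFD3min, MEFD5min and MEFD0, and MEFD3min and MEFD5min were not told apart. For Cd34 no neighbouring pair differed.

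The likeness of expression patterns was described by Pearson's r of log2 CPM over the 15 samples, which share their libraries and fall into 5 conditions. Among the markers, Pdgfra, Pi16 and Eng were the most alike, with r = 0.97 for Pdgfra and Pi16, 0.92 for Pdgfra and Eng and 0.90 for Pi16 and Eng. Thy1 and Zfp423 ran opposite to each other (r = -0.84). Pdgfra and Pdgfrb had r = -0.14. Among tested genes whose log2 CPM averaged 3 or more, the most like Pdgfra was Scarb2 (r = 0.99), and the most like Pdgfrb was Vps53 (0.97). The nearest to Thy1 was Crabp1 (0.99), to Eng Sparc (0.96), to Ly6a Znhit6 (0.96), to Pi16 Armcx6 (0.99), to Zfp423 Coq9 (0.97) and to Cd34 Ddah2 (0.93).

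The sources differ on whether the library kit kept the strand, and the strand setting of the counting is not given. Antisense genes cover 11.7% of the exon bases of Icam1, 6.21% of those of Pdgfra, 3.67% of Dpp4, 3.49% of Pi16, 2.03% of Cd34 and 1.51% of Eng, so reads of those genes and of their antisense partners may not be separable there. No antisense gene overlaps the exons of Pdgfrb, Ly6a, Thy1 or Zfp423.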

How the data were processed

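RNA-Seq was performed on 15 samples of MEFs, 3 in each of 5 conditions. The authors deposited raw counts of reads per Ensembl gene, 1 file per sample, without normalization. The submitters' processing notes name TopHat2 2.1.0, HTSeq, DESeq2 and GRCm38, without roles. The annotation release, strand setting and handling of multiply mapped reads are not given in the sources used here. Names, exons and shared 50-base stretches were taken from GENCODE M21 (46091 of 46603 identifiers matched).

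In R 4.3.3, edgeR 4.0.16 (filterByExpr, TMM, glmQLFit and glmQLFTest) was fitted once to all 15 samples and 15997 genes, with Benjamini-Hochberg adjustment and a threshold of 0.05. CPM values use TMM library sizes. Scripts were tested on simulated data. The markers and companion lists were chosen with earlier results of these data known. All 10 markers are named, with at most 3 genes per companion list and day by smallest adjusted p, and the nearest gene to each marker by r (1 companion gene is not reported here). Totals of 24030558 to 37281126 counts limit genes with few counts, where intervals and floors cover counting error only.

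Same-numbered samples were compared by the correlation of their deviations from the condition means. For MEFD3min and MEFD3plu every pair exceeded 0.1 (lowest 0.14, mean 0.24), so the numbers were taken to pair these samples. The main fit and its p-values leave this pairing out. A fit with the replicate block, DESeq2 1.42.0, other scalings, filters and thresholds, and leaving out each sample were tried as alternatives.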

Additional observations from a re-analysis of the deposited data

Results flagged for a closer look

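The effect of treatment differed between day 3 and day 5 for 7 of the 8 tested markers by the interaction term of the fit (edgeR's quasi-likelihood test, difference of log2 fold changes, day 3 minus day 5). Of all genes, 48.5% passed this test. The difference was -6.17 for Ly6a (lower in 3 of 3 treated samples on day 3 and higher in 3 of 3 on day 5), and -4.35 for Pi16, which had the same pattern over the samples. It was -2.17 for Thy1, -2.16 for Cd34, -0.90 for Pdgfra and -0.85 for Eng. Pdgfra also had the sample pattern of Ly6a and Pi16. For Zfp423 the difference was 2.09, with an adjusted p of 0.0489, just under the threshold. This call was lost on leaving out any 1 of 10 of the 12 samples, with DESeq2 and without a filter.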

How the results depend on the processing

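The day 3 effects of Pdgfra, Cd34, Ly6a, Pi16, Thy1, Zfp423 and Eng kept their direction when each sample was left out, and kept their call there. With a threshold of at least 2-fold, 5 of the 8 tested markers passed on day 3 and 2 in untreated cells from day 3 to day 5. At this threshold 11 neighbouring pairs of conditions were told apart. Of the 59 tested companion genes, 30 passed on day 3 and 21 on day 5. In untreated cells 30 passed from day 0 to day 3 and 23 from day 3 to day 5. In treated cells 28 passed from day 3 to day 5, and 27 (day 3) and 34 (day 5) against day 0. In the order of these 7 comparisons, 3814, 2451, 4068, 2150, 3990, 4955 and 4593 of all 15997 genes passed. A filter of at least 10 counts in every sample removes Cd34, Pi16 and Zfp423 and keeps Pdgfra, Pdgfrb, Ly6a, Thy1 and Eng. Of these, 4 passed on day 3, 2 on day 5 and 4 in the interaction. In treated cells 4 passed from day 3 to day 5, and in untreated cells 3 from day 0 to day 3. In the same order, 7306, 6904, 6838, 8475 and 8145 of 12251 genes passed. With this filter 11 neighbouring pairs were told apart. With an adjusted p under 0.01, 2 of the 8 tested markers passed on day 5 and 4 in the interaction. Of all 15997 genes, 6129 and 5799 passed there. Leaving out each sample gave 2 to 4 markers on day 5, with 2 without MEFD5min replicate 4. The first 3 settings test fewer genes or use stricter limits. For the last the cause was not tested.

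Values near 0 changed sign: Eng on day 5 (0.0013 with at least 10 counts, 0.00047 with the replicate block, -0.15 to 0.22 on leaving out each sample), Eng in treated cells from day 3 to day 5 (-0.17 to 0.085), Thy1 in MEFD5plu against MEFD0 (0.032 with at least 10 counts, -0.057 to 0.036), Pdgfrb in the interaction (-0.017 without a filter, -0.0090 with at least 10 counts, -0.10 to 0.22), Pdgfrb from day 0 to day 3 (-0.089 to 0.23), Ly6a from day 0 to day 3 (-0.032 with total counts alone, -0.0745 to 0.22) and Zfp423 from day 3 to day 5 in untreated cells (-0.71 to 0.31). Total counts alone moved the median of all genes by -0.16 on day 5, 0.18 in the interaction, -0.12 from day 0 to day 3 and -0.18 in MEFD5plu against MEFD0. DESeq2 lost the calls of the Zfp423 interaction (adjusted p = 0.0629), Pdgfrb on day 3 (0.0591) and Cd34 in treated cells from day 3 to day 5 (0.0589). The last was also lost with DESeq2 size factors (0.0512), total counts (0.0575) and no filter (0.0571). Without a filter Zfp423 lost its day 5 (0.0564) and interaction (0.132) calls. Pdgfrb on day 3 was also lost with DESeq2 size factors (0.0528), total counts (0.0549), at least 10 counts (0.0543) and only the samples compared (0.110), where Thy1 from day 0 to day 3 was lost (0.0542). Calls gained on day 5 were Pdgfrb with only the samples compared (0.0177) and without a filter (0.00609), and Cd34 with DESeq2 size factors (0.0431) and total counts (0.0272). The causes were not tested. The replicate block changed no count of markers by over 1.5 times (8 on day 3, 5 on day 5), called Pdgfrb on day 5 (0.35, adjusted p = 0.0195) and lost Cd34 in treated cells from day 3 to day 5 (1.39, adjusted p = 0.0507), where the numbers were not taken to pair the samples. On day 3, where they were, it changed no call of a marker. Depth limits Cd34, Pi16 and Zfp423 and leaves Dpp4 and Icam1 untested.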
